A study of Mus musculus with 8 samples.

Results

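The apolipoproteins examined here are 10 proteins of plasma lipoproteins whose mRNAs are made in liver: Apoa1, Apoa2, Apoa4, Apoa5, Apob, Apoc1, Apoc2, Apoc3, Apoe and Apom. They were taken as every non-control array probe that the files name for 1 of these genes. This gave 31 spots of 13 probes, out of 59305 non-control spots of 55681 probes, and all 10 genes passed the filter that left 14874 genes for testing. Liver RNA came from 12-week-old bl6 mice on a chow diet that had been transduced either with pblockITcontrol (control, 4 arrays) or with pblockITshRaly, a hairpin construct against Raly (shRaly, 4 arrays), and was collected at day 6. The dose is given as 2e+09 with no unit, and all 8 samples had received virus, so no untransduced liver is part of the comparison. Raly belongs to the hnRNP proteins, which bind RNA in the nucleus, and the comparison asks which liver transcripts differ when it is knocked down.

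Apolipoproteins coat the lipid particles that carry cholesterol and triglyceride in blood, and the hepatocyte is the main source of most of them. Apob is the scaffold of very low density and low density lipoproteins, Apoa1 and Apoa2 are the main proteins of high density lipoprotein, and the Apoc proteins and Apoe move between particles. They set how fast lipases work on a particle and which receptor takes it up.

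The array is a single-colour Agilent design in which a probe of 60 bases reads each mRNA. Of the 10 genes, 7 had 1 probe and 3 (Apoa2, Apob and Apoc3) had 2, while the probes of Apoa1 and Apoe were each printed as 10 spots. The sequences below are those of the genes with the largest difference (Apoa1 and Apom), the widest spread among controls (Apoa4), 2 independent probes (Apob) and repeated spots (Apoe). Each is written 5′ to 3′ as deposited, all in lower case because no base is singled out, with its place on mouse build mm9 (NCBI37).

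Apoa1 (chr9:46037921-46037980, plus strand): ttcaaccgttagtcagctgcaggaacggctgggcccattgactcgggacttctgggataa
Apom (chr17:35267047-35267106, minus strand): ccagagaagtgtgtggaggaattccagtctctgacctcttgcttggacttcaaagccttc
Apoa4 (chr9:46049661-46050404, plus strand): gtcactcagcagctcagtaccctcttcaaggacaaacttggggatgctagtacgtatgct
Apob, probe used (chr12:8023194-8023253, plus strand): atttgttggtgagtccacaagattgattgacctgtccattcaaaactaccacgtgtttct
Apob, other probe (chr12:8012697-8012756, plus strand): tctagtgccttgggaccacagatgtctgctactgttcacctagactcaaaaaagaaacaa
Apoe (chr7:20281732-20281791, minus strand): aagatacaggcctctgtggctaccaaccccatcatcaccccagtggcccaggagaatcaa

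The Apoa4 probe covers 744 bases of genome with its 60 bases, so its ends lie in different exons, and the Apob probes start 10497 bases apart. Among the 78 pairs of the 13 probes, the longest run of bases shared by a pair was 9, so no probe has a long stretch in common with another member's. The remaining probes lie at chromosome 1, 173156445 to 173156504 and 173156320 to 173156379 (Apoa2), chromosome 9, 46079943 to 46080002 (Apoa5) and 46041134 to 46041193 and 46043606 to 46043665 (Apoc3), and chromosome 7, 20274831 to 20274890 (Apoc1) and 20257027 to 20257086 (Apoc2). Exon and UTR annotation on this build was not used here.

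Raly signal was at 62.5% of control on average. On shRaly arrays 1 to 4 it was 51.8%, 80.9%, 58.3% and 62.7% of the control mean, against 84.3% to 112% on the control arrays. All 4 shRaly values lay below all controls, with shRaly 2 closest to them, and the limma adjusted p was 0.0749. The sample titles carry numbers and do not say whether the arrays come from separate mice. The p-values therefore reflect only the spread among these samples, which may be technical. All controls were in slide row 1 and all shRaly samples in row 2, so the effects of row and of group cannot be told apart. The replicate number equals the slide column on all 8 arrays, so each of the 4 columns holds 1 array of each group. The first principal component of all genes (30.2% of variance) parted the groups. Controls lay from -22.7 to -7.6 on it and shRaly arrays from 7.9 to 29.8. On the second principal component (21.9%) shRaly 1 stood apart from the other 7 arrays.

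None of the 10 apolipoproteins passed the threshold, a limma p of 0.05 after Benjamini-Hochberg adjustment over all genes (0 of 10, against 1.22% of all genes tested). The adjusted p values ran from 0.256 for Apoa1 to 0.897 for Apoa2. At an unadjusted limma p of 0.05, 1 of the 10 (Apoa1) passed, against 16.1% of all genes. The log2 fold change, which is the shRaly mean minus the control mean, was below 0 for 10 of 10, against 53.8% of all genes, but above 0 for Apoa2 (0.0092) and Apoe (0.032) after quantile normalization. Its median was -0.14, or -0.02 over all genes tested. Among the lists described below, it was below 0 for 9 of 17 hepatocyte markers and 7 of 14 other apolipoproteins and related genes. The 10 members share their arrays and scaling, so they are not 10 independent counts. Over the 8 arrays, Pearson r between members ran from -0.48 (Apoa4 and Apoe) to 0.90 (Apoc1 and Apoe). In none of the 10 did the shRaly arrays lie apart from the controls (0 of 10, against 10.4% of all genes in either direction and 6.45% with shRaly lower). In bulk RNA, fewer cells of a type and less RNA per cell cannot be told apart.

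**Figure D1:**
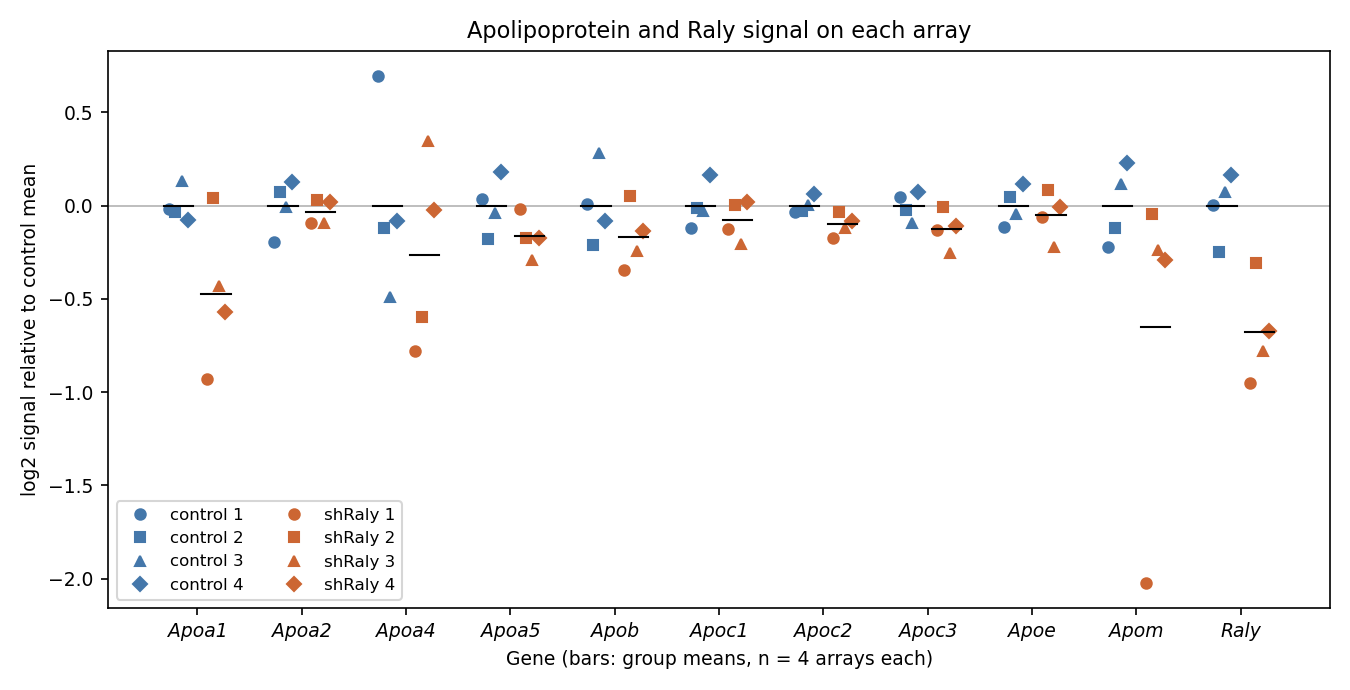
Signal of each apolipoprotein and of Raly on each of the 8 arrays, as log2 relative to the mean of the 4 control arrays; marker shape gives the replicate number, colour the group, and the short bars the group means. Apoa1 is low on 3 of 4 shRaly arrays, Apom on shRaly 1 alone stands at 24.6% of the control mean, and in each of the 10 apolipoproteins the groups overlap.

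Among the proteins of high density lipoprotein, Apoa1 had the smallest limma p of the 10 genes. Apoa1 is the structural protein of that particle and activates the enzyme that esterifies its cholesterol. Its signal on control arrays 1 to 4 was 98.8%, 97.7%, 109% and 94.7% of the control mean, and on shRaly arrays 1 to 4 it was 52.5%, 103%, 74.2% and 67.5%. The controls were close together, 3 of the 4 shRaly arrays lay below all of them, and shRaly 2 lay among them. The log2 fold change was -0.47 (SE 0.18, 95% interval -0.89 to -0.06, n = 4 and 4), which is 72.1% of control, with a limma adjusted p of 0.256 and an exact two-sided permutation p of 0.114. Without shRaly 2, the array with the least reduction of Raly, the fold change was -0.64 (limma adjusted p = 0.0617), and without shRaly 1 it was -0.32 (limma adjusted p = 0.298).

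The repeated spots of the Apoa1 probe show how well each array measured it. The spots ran from 48.9% to 55.5% of the control mean on shRaly 1, from 96.0% to 108% on shRaly 2, from 71.7% to 76.9% on shRaly 3 and from 61.9% to 72.6% on shRaly 4. On the control arrays they ran from 84.3% to 114%. Among the spots without an outlier flag, none of shRaly arrays 1, 3 or 4 reached the range of the controls. The SD between spots of 1 array was 0.04 to 0.09 on the log2 scale, while the SD between arrays was 0.09 among controls and 0.40 among shRaly arrays. The spread among shRaly arrays was thus larger than the error of spots within an array. Of the 80 spots, 75 were used, and 5 carried an outlier flag, 4 of them on control 1. Of those 4, 1 stood at 68.9% of the control mean, inside the range of shRaly 4, and the others between 95.5% and 97.9%. With flagged spots kept, the Apoa1 log2 fold change was -0.46 (limma adjusted p = 0.270).

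**Figure D2:**
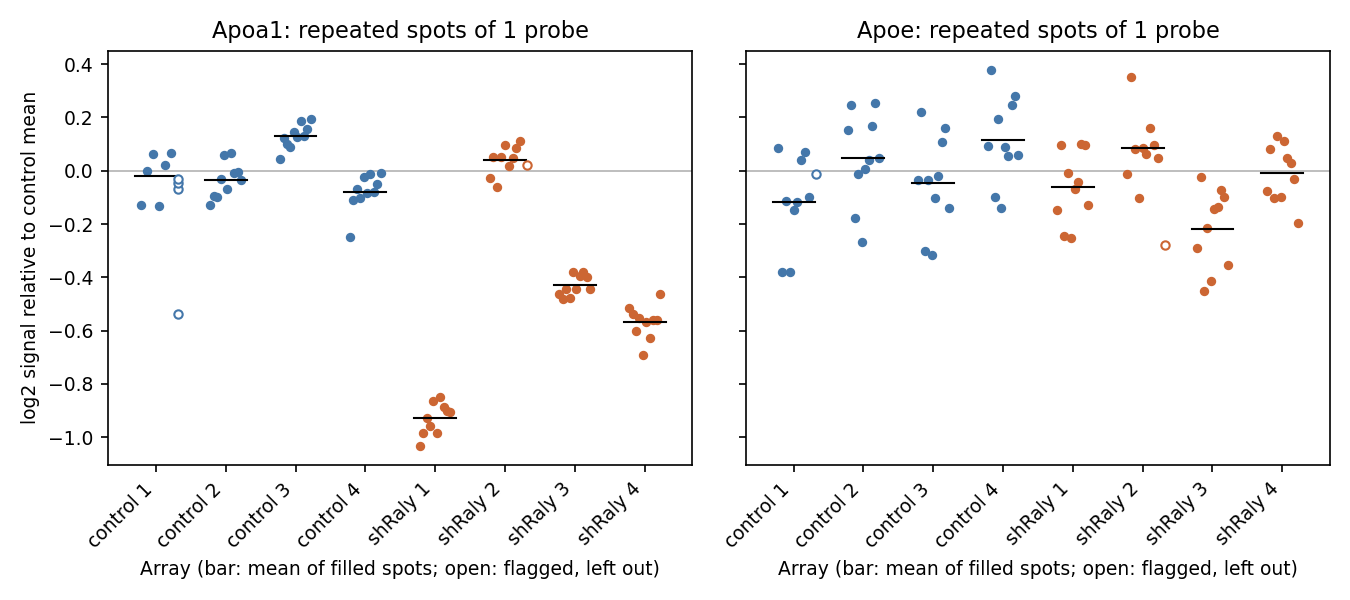
Each point is 1 spot of the Apoa1 probe (left) or of the Apoe probe (right), as log2 signal relative to the control mean, by array; filled points were used, open points carried an outlier flag and were left out, and bars are the mean of the filled points. The filled Apoa1 points of shRaly 1, 3 and 4 lie below those of every other array, 1 open point of control 1 lies among them at 68.9% of the control mean, and the filled Apoe points of the 8 arrays overlap.

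Apom carries the signalling lipid sphingosine-1-phosphate on high density lipoprotein. Its single spot gave 85.6%, 92.1%, 108% and 117% of the control mean on control arrays 1 to 4, and 24.6%, 96.9%, 84.9% and 81.6% on shRaly arrays 1 to 4. The value of shRaly 1 was far below the others, shRaly 3 and shRaly 4 also lay below the lowest control, by little, and shRaly 2 lay among the controls. Its log2 fold change was -0.65 (SE 0.39, 95% interval -1.54 to 0.24; limma adjusted p = 0.460), at 63.8% of control. Without shRaly 1 it was -0.19 (limma adjusted p = 0.464), so 1 array sets the size of this difference.

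Apoa2, the second main protein of high density lipoprotein, was at 97.6% of control, with a log2 fold change of -0.03 (SE 0.10, 95% interval -0.25 to 0.18). The 4 shRaly arrays lay between 93.7% and 102% of the control mean, inside the control range of 87.5% to 109%. The other Apoa2 probe had a log2 fold change of -0.09 (SE 0.09).

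Apob, the scaffold of the triglyceride-rich particles that liver secretes, was at 89.0% of control. It stood at 100.5%, 86.4%, 122% and 94.6% of the control mean on the control arrays and at 78.6%, 104%, 84.5% and 90.9% on the shRaly arrays. The groups overlapped, and the controls alone spanned the wider range. Apob had a log2 fold change of -0.17 (SE 0.13, 95% interval -0.47 to 0.13, limma adjusted p = 0.567), and -0.074 without control 3. The other Apob probe gave -0.16 (SE 0.15). On shRaly 1 these probes disagreed, at 78.6% with the first and 107% with the other.

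Apoe is the ligand by which hepatocyte receptors take up remnant particles. Its log2 fold change was -0.05 (SE 0.10, 95% interval -0.27 to 0.17), or 96.5% of control. The control arrays had 92.3%, 103%, 96.9% and 108% of the control mean, and the shRaly arrays 96.0%, 106%, 85.9% and 99.3%. shRaly 3 alone lay below the controls. The SD of its repeated spots within an array was 0.11 to 0.18, as wide as the SD between arrays (0.10 among controls and 0.13 among shRaly arrays).

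The 3 Apoc genes varied little between arrays. Apoc2, the cofactor that lipoprotein lipase needs, was at 97.6%, 98.0%, 100.3% and 104% of the control mean on the control arrays and at 88.8%, 97.7%, 92.1% and 94.6% on the shRaly arrays. Of the 4 shRaly values, 3 lay below all controls, and shRaly 2 lay just inside their range. The log2 fold change was -0.10 (SE 0.08, 95% interval -0.28 to 0.07) with an exact two-sided permutation p of 0.0571, where the smallest possible is 0.0286, and a limma adjusted p of 0.555. Its SD over all 8 arrays, 0.07, was the smallest of the 10 genes, and the median SD over all genes tested was 0.21.

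Apoc3 slows lipolysis and the uptake of remnants. On the control arrays it stood at 103%, 98.4%, 93.6% and 105% of the control mean and on the shRaly arrays at 91.3%, 99.5%, 84.0% and 92.8%. Below the lowest control lay 3 of 4 shRaly arrays, and shRaly 2 did not. How often this arrangement occurs over all genes was not counted. Apoc3 had a log2 fold change of -0.12 (SE 0.09, 95% interval -0.32 to 0.07, limma adjusted p = 0.521). The other Apoc3 probe, which the files assign to another transcript and which was much dimmer, gave -0.17 (SE 0.10). Apoc1, which hinders the uptake of remnants by receptors, was at 94.8% of control (log2 fold change -0.08, SE 0.10, 95% interval -0.30 to 0.14), with shRaly arrays from 86.8% to 101% and controls from 91.9% to 112% of the control mean.

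Apoa4 and Apoa5 are linked to triglyceride transport. Apoa4 was the most variable member among the controls, at 162%, 92.0%, 71.2% and 94.3% of the control mean, and the shRaly arrays had 58.3%, 66.1%, 127% and 98.3%. Both groups spread over more than 1 log2 unit and overlapped. The log2 fold change was -0.26 (SE 0.30, 95% interval -0.95 to 0.42, limma adjusted p = 0.720), and single arrays moved it both ways: -0.03 without control 1, -0.09 without shRaly 1, -0.15 without shRaly 2, -0.43 without control 3 and -0.47 without shRaly 3. Apoa5, which promotes the action of lipoprotein lipase, had 103%, 88.3%, 97.4% and 113% on the control arrays and 98.9%, 88.7%, 81.8% and 88.7% on the shRaly arrays. Its log2 fold change was -0.16 (SE 0.10, 95% interval -0.40 to 0.07, limma adjusted p = 0.482).

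**Figure D3:**
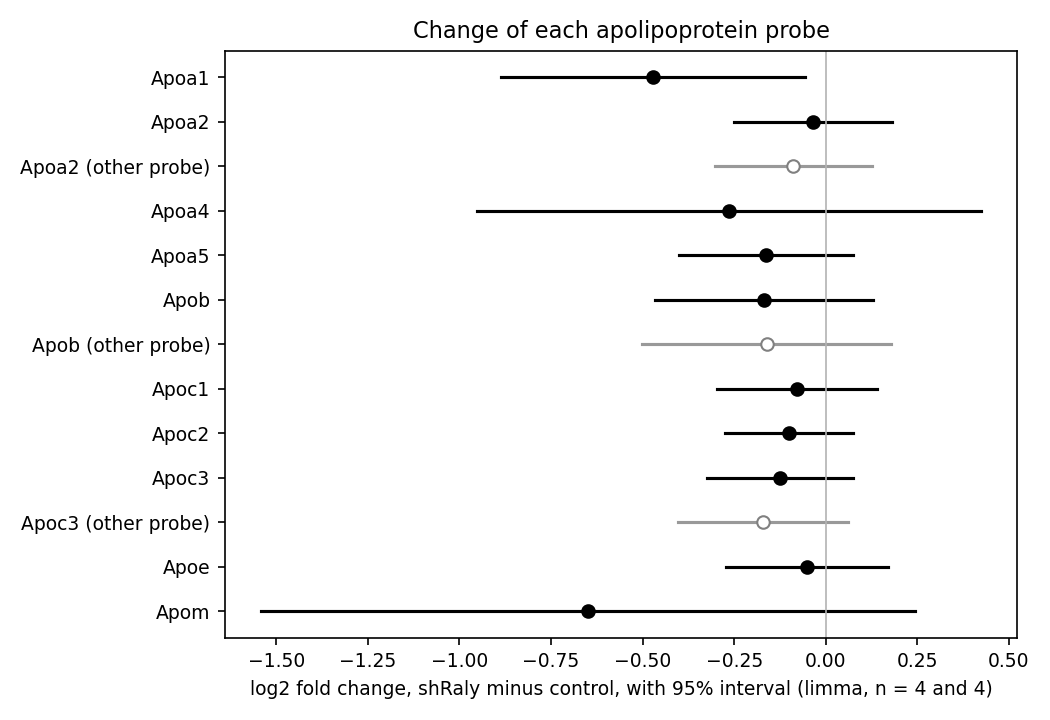
Log2 fold change (shRaly minus control) with its 95% interval from limma for the 13 probes; filled points are the probes that represent the 10 genes, open points the other probes of Apoa2, Apob and Apoc3. The interval of Apoa1 (-0.89 to -0.06) lies below 0 without adjustment, 9 gene intervals include 0, and those of Apoa4 and Apom are the widest.

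The intervals bound what these arrays can say. For 7 of the 10 genes the unadjusted 95% interval lay within 0.5 log2 units of no change, that is between 70.7% and 141% of control. The genes outside were Apoa1, Apoa4 and Apom. Every one of the 31 spots exceeded background clearly on 8 of 8 arrays, and none was saturated. The brightest had a mean signal of 43.2% of the scanner's saturation value.

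The 10 genes did not all follow the same arrays. Among the shRaly arrays, shRaly 1 was the lowest for 6 genes and shRaly 3 for 4. shRaly 2 was the highest for 7. The median of the 10 genes relative to the control mean was -0.15, -0.00, -0.23 and -0.09 on shRaly arrays 1 to 4 and -0.03, -0.03, -0.02 and 0.09 on control arrays 1 to 4. Those of shRaly 1, 3 and 4 lay below every control, and that of shRaly 2 did not. The same medians and ranks were not taken over all genes. Shifts of a whole array are therefore not set apart here from those of the members. Within slide columns 1 to 4, the difference of shRaly from control was -0.91, 0.08, -0.56 and -0.49 on the log2 scale for Apoa1, and -1.80, 0.07, -0.35 and -0.52 for Apom. With the slide column as a block the limma adjusted p was 0.281 for Apoa1 and 0.379 for Apom. Whether the size of the Raly reduction on an array bears on its apolipoprotein signal was not tested.

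Of these genes, 7 lie in 2 gene clusters. In the cluster on chromosome 9 (Apoa1, Apoc3, Apoa4 and Apoa5) the log2 fold changes ran from -0.47 to -0.12, and in that on chromosome 7 (Apoc2, Apoc1 and Apoe) from -0.10 to -0.05. The 12 genes listed as lying beside these clusters had a median of -0.06, and 0 of 12 passed the limma threshold (1 at an unadjusted p of 0.05, against 16.1% of all genes). The neighbours of smallest p were Sik3, a kinase (-0.42, SE 0.12, limma adjusted p = 0.137, with other probes at -0.39 and 0.16 and the mean of its probes at -0.22), and Nectin2, an adhesion protein (-0.23, SE 0.11, limma adjusted p = 0.343).

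The genes most like Apoa1 over the 8 arrays, among 13657 other genes above background on all of them, were Cnpy2 (Pearson r = 0.983), Nfil3 (0.981), Itih2 (0.973), Tmem88 (0.966) and Klkb1 (0.964). Cnpy2, for instance, stood at 60.1%, 93.4%, 78.8% and 71.2% of the control mean on shRaly arrays 1 to 4. The genes most like Apom, the member of widest spread, were Kbtbd7 (0.992), Rab14 (0.984), Tvp23b (0.984), Lamp1 (0.978) and Tpm1 (0.975). On shRaly 1 these 5 stood from 79.4% of the control mean for Lamp1 to 6.65% for Tpm1. That array sets most of the spread of Apom, so genes picked for likeness to Apom are bound to be low there. The correlations describe 8 arrays that include both groups, and each pair shares its arrays and their scaling. As the genes were picked by these correlations, their likeness to Apoa1 or Apom is no separate result.

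Beyond the 10 members, 91 genes that make, remodel, take up or regulate these particles were listed, of which 88 were measured. Of the 88, 0 were higher and 3 lower past the threshold (3.41%, against 1.22% of all genes), and 85 did not pass. These calls were not stable. The number of listed genes past the threshold was 2 without shRaly 2 and 0 in each of the other 7 leave-outs. With the slide column as a block, none of the 3 called genes passed.

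The list of other apolipoproteins and related proteins also holds the paraoxonase Pon1 and the receptor Apobr. Of its 14 measured genes, 0 were higher and 1 lower past the limma threshold, against 1.22% of all genes. An unadjusted limma p under 0.05 was seen for 5 of the 14, against 16.1% of all genes. Below 0 were 7 of the 14, against 53.8% of all genes. Apol7a, of the apolipoprotein L family, was at 114%, 88.6%, 93.1% and 106% of the control mean on the control arrays and at 58.8%, 70.3%, 72.5% and 60.6% on the shRaly arrays, with no overlap. It fell by 0.62 on the log2 scale (SE 0.12, limma adjusted p = 0.0474), and its other probes gave -0.74 and -0.32. This call was lost in all 8 leave-outs and in 5 of 12 other alternatives. Apol9a, of the same family, had a log2 fold change of 0.34 (limma adjusted p = 0.168). Apoc4, which lies in the chromosome 7 cluster and is named after its values were seen, stood at 96.3% of control. The list's median was -0.00.

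Of 25 transcription factors known to act on apolipoprotein genes, 0 were higher and 2 lower past the limma threshold, against 1.22% of all genes. An unadjusted limma p under 0.05 was seen for 6 of them, against 16.1% of all genes. Their log2 fold changes ran from -0.68 to 0.50, 16 of 25 were below 0 (against 53.8% of all genes), and the median was -0.07. Ppara, the fatty acid receptor that regulates Apoa and Apoc genes, had 96.2%, 110%, 101% and 93.5% of the control mean on the control arrays and 74.8%, 73.6%, 56.8% and 62.8% on the shRaly arrays. The groups did not overlap. It fell by 0.59 on the log2 scale (SE 0.11, limma adjusted p = 0.0498), and its other probes gave -0.56 and -0.55. Its call held without shRaly 2 but was lost in the other 7 leave-outs, and held in 6 of 12 other alternatives. Srebf2, the sterol regulator, fell by 0.68 (SE 0.12, limma adjusted p = 0.0379), and its second probe gave -0.26. With normexp background correction its log2 fold change was -0.42 (limma adjusted p = 0.0838). Its call was likewise lost in 7 leave-outs, and held in 7 of 12 other alternatives. Hnf4a, the hepatocyte factor that acts on many apolipoprotein promoters, is also named after its values were seen. It stood at 102% of control (log2 fold change 0.03, SE 0.09, limma adjusted p = 0.889).

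Of 13 genes of particle assembly and Apob mRNA editing, 0 passed the limma threshold and 3 had an unadjusted p under 0.05, which 16.1% of all genes had (median -0.00). The genes of smallest p were P4hb, the disulfide isomerase subunit of the lipid transfer complex (-0.33, SE 0.10, limma adjusted p = 0.161), and A1cf, the editing cofactor (-0.31, SE 0.13, limma adjusted p = 0.284), whose second probe gave 0.12. Mttp, the triglyceride transfer protein that loads Apob with lipid, had a log2 fold change of 0.16 (SE 0.11, limma adjusted p = 0.506). It was named after its values were seen, for its role beside P4hb.

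Of 12 lipases and plasma remodelling genes, 0 passed the limma threshold and 5 had an unadjusted p under 0.05, against 16.1% of all genes (median -0.05). Lmf1, which matures lipases, had a log2 fold change of -0.35 (SE 0.08, limma adjusted p = 0.0846). Its second probe gave -0.29 (SE 0.31), and the mean of its probes -0.32 (limma adjusted p = 0.384). Angptl4, a lipoprotein lipase inhibitor, had a log2 fold change of 0.37 (SE 0.12, limma adjusted p = 0.176). Of 12 receptor genes measured, 0 passed the limma threshold and 4 had an unadjusted p under 0.05, again against 16.1% of all genes (median -0.10).

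**Figure D4:**
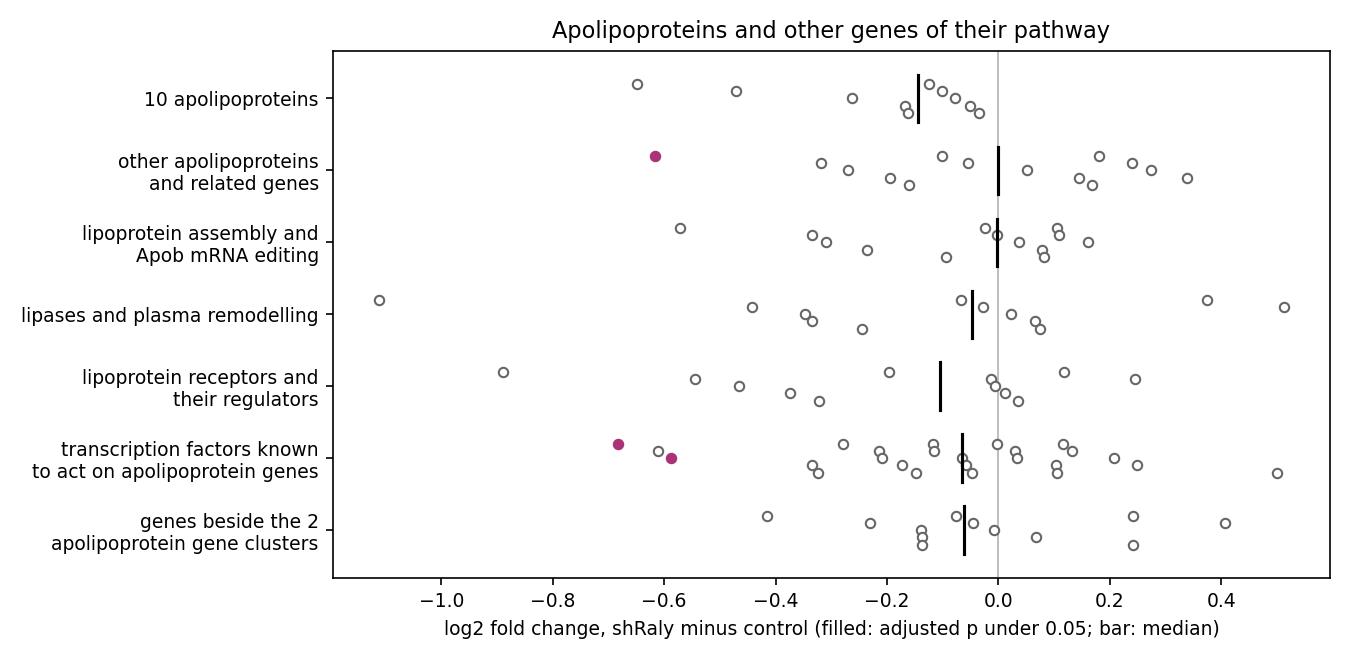
Log2 fold change (shRaly minus control) of the 10 apolipoproteins and of the measured genes of 6 lists; each point is a gene, filled where the limma adjusted p is under 0.05, and bars are medians. The 10 apolipoproteins lie below 0 (Apoa2 and Apoe above it after quantile normalization) with a median of -0.14 and none is filled, and the filled points are Apol7a, Srebf2 and Ppara.

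The tissue label was checked against markers. All 17 hepatocyte markers measured were well above background on 8 of 8 arrays, with a median log2 fold change of -0.01 and a summed level of 9000 to 10127 times the array's 75th percentile among controls and 8271 to 9981 among shRaly arrays. Alb, serum albumin, was the hepatocyte marker named after its values were seen. It stood at 61.8%, 96.2%, 75.2% and 80.4% of the control mean on shRaly arrays 1 to 4 and at 92.1% to 104% on the controls, an order of shRaly arrays in which 1 is lowest and 2 highest, as for Apoa1. Its log2 fold change was -0.37 (limma adjusted p = 0.225).

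Apoa1 and Apoa4 are also made by small intestine. Of 9 markers of small intestine, Cdx1, Cdx2, Sis, Muc2 and Rbp2 were well above background on 0 of 8 arrays and Cdh17 on 1. Fabp2 and Lgals4 were well above background on 8 of 8 arrays and Vil1 on 4. These 3 measured markers had a summed level of 120 to 137 among controls and 90.9 to 122 among shRaly arrays. Apoe is also made by macrophages, whose 11 measured markers had a median of -0.02 and summed to 147 to 217 among controls and 171 to 213 among shRaly arrays. The 10 endothelial markers summed to 73.8 to 83.3 among controls and 61.5 to 73.0 among shRaly arrays, ranges that nearly met without overlap. Of single genes, 10.4% of all tested had no overlap, and no such share was taken for sums. Of the 10 endothelial markers, 8 had a log2 fold change below 0, against 53.8% of all genes. The 8 measured lymphocyte markers summed to 35.9 to 50.6 among controls and to between 21.98 and 38.2 among shRaly arrays. The median log2 fold change was -0.31 over the intestinal markers, -0.21 over the endothelial and -0.25 over the lymphocyte markers. It was -0.20 over 10 stellate cell, -0.12 over 5 cholangiocyte, 0.40 over 5 neutrophil and -0.03 over 4 red blood cell markers. Of all these lists, 0 markers passed the limma threshold. An unadjusted limma p under 0.05, which 16.1% of all genes had, was seen for 2 of 17 hepatocyte, 2 of 3 intestinal, 0 of 11 macrophage, 3 of 10 endothelial, 3 of 8 lymphocyte, 2 of 10 stellate cell and 0 of the other markers. The values lie beside those of the apolipoproteins, and their part in the apolipoprotein values was not tested.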

How the data were processed

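RNA of 8 liver samples was labelled with Cy3 and hybridised to 8 arrays on 1 slide. Each deposited file holds spot intensity values from the Agilent Feature Extraction software (11.5.1.11 in the submitters' processing notes; per the file headers 11.5.1.1). The processed signal intensity is background-subtracted and not scaled between arrays, per the file headers. The deposited table of the series equals it for 62976 of 62976 spots.

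On the log2 scale, the 75th percentile of an array's non-control spots was subtracted from its processed signal. A level is thus relative to that percentile, and levels of different probes are not calibrated against each other. The summed levels of marker lists add such probes on the linear scale. Bright probes weigh most in these sums, and sums of different lists are not comparable. Percentages of control are differences on this log2 scale turned back to a linear ratio. Flagged spots were left out and the spots of a probe averaged. Genes were named through a RefSeq table of GRCm38.p6, and coordinates are those of the files. Tested genes had a probe well above background on no fewer than 4 of the 8 arrays, with no fewer than 3 values per group, and its brightest such probe represented it.

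Groups were compared with limma 3.58.1 in R 4.3.3 (lmFit, eBayes), with p-values adjusted by Benjamini-Hochberg over 14874 genes and a threshold of 0.05. The fit was tested on simulated data. Exact permutation tests compared 4 with 4 arrays. Between 45.9% and 51.1% of spots per array were well above background, and the number of arrays limits the precision. Named were the 10 members, Raly, list genes past the threshold, the 2 of smallest p in each list, and the 5 genes most like the members of smallest p and widest spread. The genes so named in the receptor list are not reported here. The members and lists were chosen with earlier results of these data known. Alternatives were other background correction, scaling, filters, probe rules, variance models, a replicate block and leaving out each array. Array weights were added after seeing the data.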

Additional observations from a re-analysis of the deposited data

Results flagged for a closer look

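Apom on shRaly 1, at 5.17 on the log2 scale, lay far from the other 3 shRaly arrays. The gap to the nearest of them was 0.874 of the whole range of the group, above Dixon's 95% critical value for 4 samples. It was the 1 value so far apart among 22 groups of 4 (11 genes in both conditions), and chance gives about 1 in 20.

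The Apom spot of shRaly 1 carried no outlier flag and covered 43 pixels, against 42 to 46 on the other arrays. Its 28 neighbouring spots on that array had a median deviation of -0.04 log2 units and a lowest of -0.52, where the Apom spot was at -1.70. Compared with the lowest of the other 7 arrays, Apom on shRaly 1 was 1.73 log2 units lower, which is rank 2 among 13658 genes after Tpm1 (3.72). On shRaly 1, 15 genes lay more than 1 log2 unit below all other arrays and 14 as far above them, while each of the other arrays had 0 to 5 genes as far below. The array weights gave shRaly 1 the lowest weight, 0.367. Whether these values have a common source was not tested.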

How the results depend on the processing

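Of 200 values of the 10 apolipoproteins under 20 alternatives, 0 passed the threshold and 196 kept their sign. The 4 others were those of Apoa2 with quantile normalization (0.0092) and without control 4 (0.0084), and of Apoe with quantile normalization (0.032) and without shRaly 3 (0.0054). The lowest adjusted p was 0.0617 for Apoa1 without shRaly 2. Leaving out single arrays gave Apoa1 log2 fold changes from -0.64 to -0.32, Apom from -0.85 to -0.19, Apoa4 from -0.47 to -0.03, Apoa2 from -0.099 to 0.0084, Apoe from -0.096 to 0.0054, Apob from -0.24 to -0.074, Apoc1 from -0.12 to -0.023, Apoa5 from -0.22 to -0.10, and the number of apolipoproteins past the threshold stayed 0. The labels do not pair the replicate numbers, and the deviations of same-numbered arrays were barely correlated (0.09, -0.02, -0.07 and 0.14), but the number is also the slide column, so a replicate block is a slide column block. With it 46 genes passed instead of 182, 0 of them apolipoproteins, and 1 of the 88 listed genes, which was not Apol7a, Ppara or Srebf2. The number of genes past the threshold was 108 with hepatocyte marker scaling, 42 with no filter on dim probes, 492 with array quality weights, and 17 to 282 when single arrays were left out. The number of the 88 listed genes past it was 0 with hepatocyte marker scaling, with no dim filter and with the mean of a gene's probes, 5 with trended and robust eBayes, 6 with array quality weights, and 0 to 2 when single arrays were left out. Raly passed the threshold with normexp background correction (-0.71), with trended and robust eBayes (-0.68) and without shRaly 2 (-0.80), its leave-outs running from -0.80 to -0.59. Fewer arrays were fitted in the leave-outs; for the other shifts the cause was not tested.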
